A study of Mus musculus with 6 samples.

Results

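A chain is a run of 3 or more Foxa1 regions of the 6-month peak list that follow each other along a chromosome with gaps below 1000 bp. Of the 35630 Foxa1 regions listed at 6 months on the chromosomes 1 to 19, 11277 stood in such chains, and there were 3044 chains. Members were chosen by their positions in that list, so the number, size and strength of chains in it are given as a description with no test. The regions come from ChIP-seq (chromatin immunoprecipitation and sequencing) on mouse prostate tumor cells of strain C57BL/6 after tamoxifen for 2 weeks or for 6 months, with antibodies to Foxa1 or Foxa2. Each of the 6 groups (Foxa1, Foxa2 and input at each time) held 1 library. Per the labels' protocols, 3 prostates were dissected and fixed; the sources used here do not say whether the libraries share them, nor do they state the genotype and age of the animals. Peak lists do not measure expression, so the labelled cell type was not checked against its markers.

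Foxa1 and Foxa2 are forkhead transcription factors that bind DNA wrapped in nucleosomes and open it for other factors, which is why they are called pioneer factors. In the prostate, Foxa1 works with the androgen receptor in luminal cells, and Foxa2 is known from the budding prostate and from neuroendocrine tumours. Clusters of binding sites for such factors are a common feature of enhancers near genes that define a cell's identity.

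Most chains lay away from the listed gene starts, so sequence could be shown for few of them. Among the 20085 RefSeq promoter windows used (the 250 bases before a start site of a protein-coding gene, assembly GRCm38.p6, the same chromosome sequences as mm10), 73 windows of 66 genes had at least 125 bases under a chain region. Both strands were searched for the forkhead words TGTTTAC and TGTTTGC, read in capitals as GTAAACA or GCAAACA where they lie on the opposite strand. At least 1 of them stood in 18 of the 73 windows (24.7%, exact 95% interval 15.3 to 36.1%), in 65 of 253 windows under Foxa1 regions outside chains (25.7%, 20.4 to 31.5%) and in 6.45% of all windows. The androgen receptor hexamer AGAACA stood in 13.7% of the 73 windows, in 17.0% (12.6 to 22.2%) of the 253 and in 13.6% of all. Some windows overlap each other, so these intervals are too narrow. A match is a description of the letters and not a site, and no match says only that these letters are not in this window. Of the 73 windows, 18 lay outside every protein-coding gene body, and 5 of these held a forkhead word. The 4 shown here are the 3 of those 5 in a chain of 4 or more regions and, because its chain is among the largest, that of Foxa2, which holds neither word; they were chosen after their values were seen. Each is printed 5′ to 3′ on the strand of its gene, with capitals for the forkhead words.
Foxa2, chr2:148046970-148047219, minus strand: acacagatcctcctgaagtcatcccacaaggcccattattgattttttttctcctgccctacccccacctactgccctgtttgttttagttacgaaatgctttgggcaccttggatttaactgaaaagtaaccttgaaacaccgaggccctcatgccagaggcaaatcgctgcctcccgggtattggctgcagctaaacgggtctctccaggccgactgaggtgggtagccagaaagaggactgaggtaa
Txnip, chr3:96557707-96557956, plus strand: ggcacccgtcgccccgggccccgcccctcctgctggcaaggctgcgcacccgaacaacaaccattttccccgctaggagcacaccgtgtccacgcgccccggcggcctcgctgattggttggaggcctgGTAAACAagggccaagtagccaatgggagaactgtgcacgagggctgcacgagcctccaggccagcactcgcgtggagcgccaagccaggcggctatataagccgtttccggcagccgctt
Il4ra, chr7:125552021-125552270, plus strand: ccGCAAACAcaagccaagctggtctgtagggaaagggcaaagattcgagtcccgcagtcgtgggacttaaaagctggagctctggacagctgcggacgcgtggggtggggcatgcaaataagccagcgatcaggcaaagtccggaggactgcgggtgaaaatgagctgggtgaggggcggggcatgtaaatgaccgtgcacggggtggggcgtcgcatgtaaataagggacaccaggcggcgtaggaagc
Cited2, chr10:17722978-17723227, plus strand: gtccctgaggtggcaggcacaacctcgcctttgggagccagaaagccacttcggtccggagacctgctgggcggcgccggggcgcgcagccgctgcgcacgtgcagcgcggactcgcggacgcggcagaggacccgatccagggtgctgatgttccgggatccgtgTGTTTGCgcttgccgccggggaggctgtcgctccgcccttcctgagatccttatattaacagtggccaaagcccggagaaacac

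These 4 promoters differed in which other lists covered them. The printed Foxa2 window lay whole under a 6-month Foxa1 region (fold enrichment 3.67 over the caller's local background, -log10 q 5.49) and whole under a 6-month Foxa2 region, with 0 of its bases under a 2-week Foxa1 region. A second Foxa2 window of the same chain (chr2:148045465-148045714), inside the gene and not printed, had 156 bases under a chain region and 0 under either other list. The window of Txnip, an inhibitor of thioredoxin, had 228 of its 250 bases under a 6-month Foxa1 region (fold 4.47), all 250 under a 2-week region and 0 under Foxa2. The window of Il4ra, the receptor chain for interleukin 4, was whole in all 3 lists. In the window of Cited2, a transcriptional coregulator, 160 bases lay under a chain region, 114 under a 2-week region and 0 under Foxa2. The whole spans of the 4 chains held 6, 3, 3 and 5 Foxa2 regions, counting those over the windows. A window inside the body of Prox1, not printed, had 235 bases under a region of the largest chain, none under either other list, and held TGTTTGC.

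The values used throughout are the authors' peak positions, fold enrichment and -log10 q, which serve only within their own list. The depth of the libraries is unknown, and its part in the lengths of the lists was not tested. With 1 library per group no difference between lists or times has a replicate check and no test was made. Intervals are exact Clopper-Pearson 95% intervals and cover counting error only; neighbours within a chain share a stretch of DNA, so intervals over regions are too narrow. The lists on the chromosomes 1 to 19 held 35630 Foxa1 regions at 6 months, 53460 at 2 weeks, 34729 Foxa2 regions at 6 months and 1 Foxa2 region at 2 weeks, from which no chain can be made.

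Chains took up a larger share of the 6-month Foxa1 list than of either comparison list. They held 31.7% (31.2 to 32.1%) of Foxa1 regions at 6 months, 11.9% (11.6 to 12.2%) of Foxa1 regions at 2 weeks, where 1870 chains were found in the longer list, and 22.5% (22.1 to 23.0%) of Foxa2 regions at 6 months, in 2209 chains. With each list limited to its 34729 strongest regions these shares were 30.7%, 3.76% and 22.5%, but this limit removed weak regions almost only from the 2-week list. With weaker regions left out (-log10 q below 5) they were 8.73%, 2.96% and 5.24%, in 403, 298 and 242 chains. This cut-off kept 15247, 31960 and 15013 regions, which are unequal parts of the lists, as -log10 q is not matched between them. The order of the 3 lists was the same in these settings.

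Most chains were short. At 6 months, 1833 of the 3044 Foxa1 chains (60.2%) had 3 regions, 695 had 4, and 516 (17.0%) had 5 or more. In the 2-week list 8.07% of chains had 5 or more, and in the Foxa2 list 12.2%. There were 52 chains of 8 or more regions in the 6-month Foxa1 list, 7 in the 2-week list and 15 in the Foxa2 list. The longest run had 19 regions against 9 and 11. The median chain spanned 3061 bp, from 787 to 21238 bp, of which regions covered 70.5%. All chains together spanned 10.7 Mb and held 35.8% of the bases in the 6-month Foxa1 list.

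**Figure D1:**
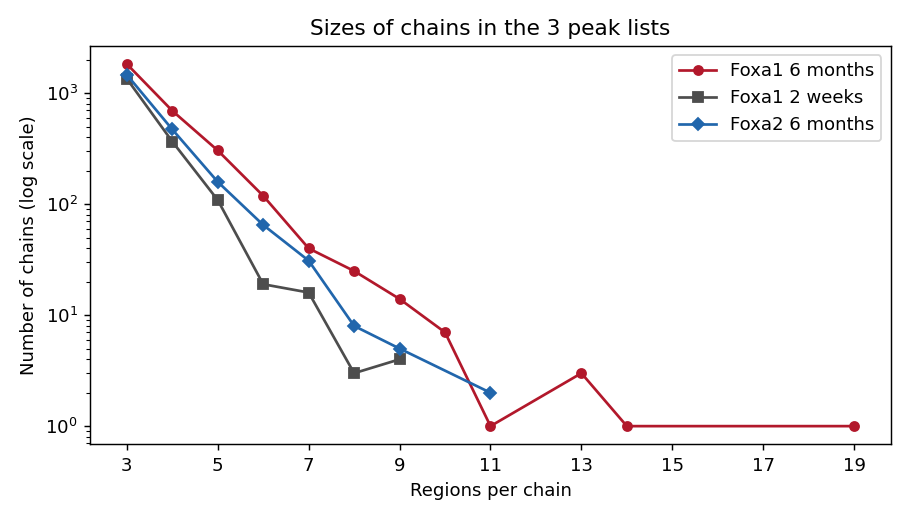
Number of chains (vertical log scale) against the number of regions per chain for Foxa1 at 6 months, Foxa1 at 2 weeks and Foxa2 at 6 months; each point is a count of chains. The 6-month Foxa1 list has the most chains at each size up to 10 and alone has chains of 13, 14 and 19 regions.

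The limit of 1000 bp does not fall at a break in the spacing. Neighbouring 6-month regions had 392 gaps from 900 to below 1000 bp and 310 from 1000 to below 1100 bp, with 34 gaps from 990 to below 1000 bp and 36 from 1000 to below 1010 bp. No gap was below 140 bp, and the median gap inside chains was 290 bp. At gaps from 100 to below 200 bp, 3751 pairs of neighbours were found in the 6-month list, 2699 in the 2-week list and 2414 in the Foxa2 list, while from 1900 to below 2000 bp the counts were 90, 233 and 106. The excess of the 6-month Foxa1 list over the 2-week list was therefore at short spacing, and in every step of 100 bp from 700 to 2000 bp the 2-week list had more.

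Chain members were much like other regions in strength. Their median -log10 q was 4.46 against 4.37 for the 24353 other regions, median fold enrichment was 3.43 in both, and median width was 361 against 340 bp. Runs of 2, just outside the rule, had a median -log10 q of 4.47 and a median width of 348 bp, and chains of 3, just inside it, 4.46 and 356 bp. In the strongest of 10 equal parts of the list by -log10 q, 41.6% of regions were in chains, and in the other 9 parts between 27.3 and 32.7%. By chromosome the share ran from 25.1% on chromosome 16 to 36.5% on chromosome 10.

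Inside a chain, regions were unequal. The strongest region of a chain had a median -log10 q of 13.5 and a median width of 1175 bp, the second strongest 4.98 and 354 bp, and the third strongest 3.15 and 261 bp. The summit of the strongest region was enriched a median 1.89 times as much as that of the weakest (10% of chains above 3.47), and the widest region held a median 57.7% of a chain's covered bases. In 1419 chains (46.6%) the strongest region was in the top part of 10. In 285 chains (9.36%) no region reached a -log10 q of 5, and in 151 (4.96%) every region did. Regions between the ends of a chain were wider than the first and last, with medians of 442 and 314 bp.

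The next comparison asked whether Foxa2 was called where Foxa1 formed chains at 6 months. Nearly every chain had Foxa2 somewhere: 42 of 3044 chains (1.38%) had no Foxa2 region in their span, and 1225 (40.2%) had 3 or more. A chain offers at least 3 regions for an overlap, so this count has no like share among regions outside chains. Region by region the overlap was lower. Of the 11277 members, 6772 (60.1%, 59.1 to 61.0%) overlapped a Foxa2 region by at least 1 bp, against 63.4% of all Foxa1 regions and 65.0% (64.4 to 65.6%) of regions outside chains. This share was 62.0% in chains of 3, 59.2% in chains of 4 and 57.2% (55.4 to 59.0%) in chains of 5 or more. Measured in bases the gap was smaller, with 61.1% of member bases and 62.3% of other bases under Foxa2.

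The share with Foxa2 fell with the strength of a region, inside chains and outside them. Ranked by -log10 q within the chain, Foxa2 overlapped 93.2% (92.2 to 94.1%) of the strongest regions. It overlapped 59.8% (58.0 to 61.5%) of the second strongest and 41.6% (39.8 to 43.3%) of the third strongest. Regions between the ends overlapped Foxa2 more often (68.0%) than the first and last (53.3%), and had the higher median -log10 q (5.10 against 3.93). All members were overlapped in 537 chains (17.6%). Within equal parts by strength, members had the lower share in 8 of 10 parts, by up to 13.6 percentage points in the fourth part (64.0 against 77.6%). In the first part all 1482 members and 2080 of 2081 other regions overlapped Foxa2, and in the weakest part the shares were 32.7 and 31.4%.

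**Figure D2:**
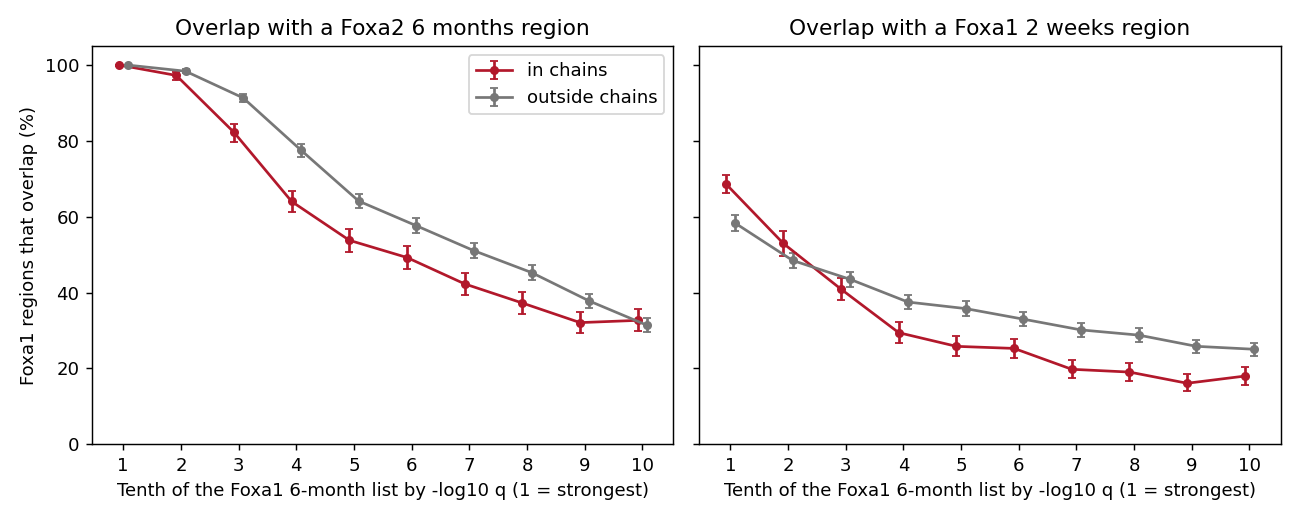
Share of 6-month Foxa1 regions, inside and outside chains, that overlap a 6-month Foxa2 region (left) or a 2-week Foxa1 region (right), by 10 equal parts of the list from strongest (1) to weakest (10) -log10 q; bars are exact 95% intervals for counting error. For Foxa2, members lie below other regions in parts 2 to 9. For 2 weeks they lie above in parts 1 and 2 and below in the others.

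Foxa2 formed chains of its own at many of these places. Of the Foxa1 chains, 1194 (39.2%, 37.5 to 41.0%) overlapped a Foxa2 chain, and of the 2209 Foxa2 chains 1217 (55.1%, 53.0 to 57.2%) overlapped a Foxa1 chain. By size the share was 29.9% of chains of 3 regions, 47.9% of chains of 4, 57.3% of chains of 5 to 7 and 90.4% (79.0 to 96.8%) of the 52 chains of 8 or more. The median span of these classes was 2483, 3536, 5140 and 9145 bp, and its part in the share was not tested. Foxa2 regions covered 48.3% of the chains' span. In 482 chains (15.8%) a single Foxa2 region covered at least 50% of the span.

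The comparison with 2 weeks asked how far the chains stood on earlier Foxa1 sites. At 2 weeks, 1067 of the 3044 chains (35.1%, 33.4 to 36.8%) had no Foxa1 region in their span, 1111 (36.5%) had 1, 577 had 2 and 289 (9.49%) had 3 or more. Of the members, 3675 (32.6%, 31.7 to 33.5%) overlapped a 2-week region, against 35.1% of all 6-month Foxa1 regions and 36.3% (35.7 to 36.9%) of those outside chains. A 2-week chain was met by 302 chains (9.92%), and 303 of the 1870 chains of 2 weeks (16.2%) met a 6-month chain. In 443 chains (14.6%) a single 2-week region covered at least 50% of the span. Places with a chain at 6 months had mostly no region or 1 region at 2 weeks. They were chosen for 3 or more regions at 6 months, so the rule favours a lower count in any other list. In the other direction, 880 of the 1870 chains of 2 weeks (47.1%, 44.8 to 49.4%) had any 6-month Foxa1 region in their span.

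At 2 weeks, too, the strongest region of the chain was the one most often present. A 2-week region overlapped 58.7% (56.9 to 60.5%) of the strongest, 29.4% of the second strongest and 20.4% of the third strongest regions. Outside chains the share also fell with strength, from 58.3% in the first part to 25.0% in the weakest. Within the top part by strength, members overlapped 2-week regions more often than other regions (68.7 against 58.3%), and in the second part 52.9 against 48.5%. Members of these parts were also wider, with medians of 1930 against 1607 bp and 988 against 897 bp. The part of width in this was not tested. From the third part on members overlapped 2-week regions less often, with 19.8 against 30.1% in the seventh part. Both other lists covered 3000 members (26.6%), Foxa2 alone 3772 (33.4%), 2-week Foxa1 alone 675 (5.99%) and neither 3830 (34.0%, against 26.4% of regions outside chains). The median -log10 q was 3.17 for members with neither and 9.07 for members with both.

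**Figure D3:**
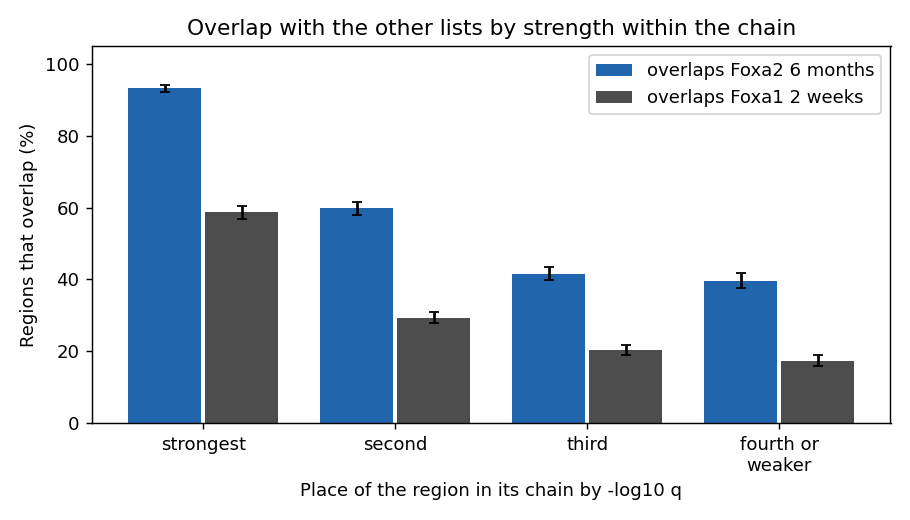
Share of chain regions that overlap a 6-month Foxa2 or a 2-week Foxa1 region (vertical axis, %), by the place of the region in its chain when ranked by -log10 q; bars are shares over all chains and whiskers exact 95% intervals for counting error. Foxa2 stands at 93.2% for the strongest and 39.7% for the fourth strongest or weaker, and 2-week Foxa1 at 58.7% and 17.4%.

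The largest chain, with 19 regions over 21238 bp, lay in Prox1 (chromosome 1, 190153973 to 190175210, mm10), which encodes a homeobox factor of neural and lymphatic development. Its span held the start site of the gene. Its regions had a -log10 q between 2.25 and 13.6 and a highest fold enrichment of 5.81, and the strongest was close to the median of 13.5 for the strongest region of a chain. It held 17 Foxa2 regions, in 3 Foxa2 chains, and a single weak 2-week Foxa1 region of 209 bp (-log10 q 1.78). Thus 13 of its 19 members overlapped Foxa2 and 1 overlapped a 2-week region. Prox1 had 3 more chains of 3, 4 and 3 regions, and the last of these, at 190147671 to 190149722, had no region of either other list.

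Foxa2 itself stood among the largest chains. A chain of 13 regions (chromosome 2, 148034289 to 148048432) covered the whole gene, from 148042877 to 148046969, with a highest fold of 5.81. A chain of 11 regions (148023847 to 148031764, highest fold 4.32) and a chain of 10 (147940623 to 147952837, highest fold 10.1) followed on the same side. Their strongest summits lay 17.1 and 97.3 kb from the gene, the second close to the limit of 100 kb for giving a chain to a gene. The 3 chains had 0 2-week Foxa1 regions in their spans. They held 6, 6 and 8 Foxa2 regions, and Foxa2 covered 13.3, 31.7 and 61.7% of their span. The chain over the gene was not met by a Foxa2 chain, and 4 of its 13 members overlapped a Foxa2 region.

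A chain of 14 regions lay in Foxp1, which encodes a forkhead repressor (chromosome 6, 98998402 to 99016982, highest fold 7.26). It held 8 Foxa2 and 4 2-week regions and met a 2-week chain. The 13 regions in Megf9 (chromosome 4, 70499770 to 70517831, fold 8.03) faced 14 Foxa2 and 8 2-week regions. A chain of 13, more than 100 kb from any protein-coding gene (chromosome 10, 91435534 to 91448455, fold 7.73) held 14 Foxa2 regions and 0 of 2 weeks. Chains of 10 lay in Runx1t1, a corepressor gene (chromosome 4, 13743799 to 13760318, fold 8.29; 10 Foxa2 and 3 2-week regions), in the cadherin gene Cdh20 (chromosome 1, 104910389 to 104923641, fold 8.97; 4 and 0) and in Arhgap26 (fold 14.9; 5 and 3). Of these 10 chains, taken from the 13 with 10 or more regions with ties ordered by the strongest region, 5 had no 2-week region and all had at least 4 Foxa2 regions. Among all chains 35.1% had no 2-week region. By size this share was 38.8% of chains of 3 regions, 31.2% of chains of 4 and 27.4% of chains of 5 to 7. It was 21.2% (11.1 to 34.7%) of the 52 chains of 8 or more, so it fell with size. The part of the longer span in this was not tested.

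**Figure D4:**
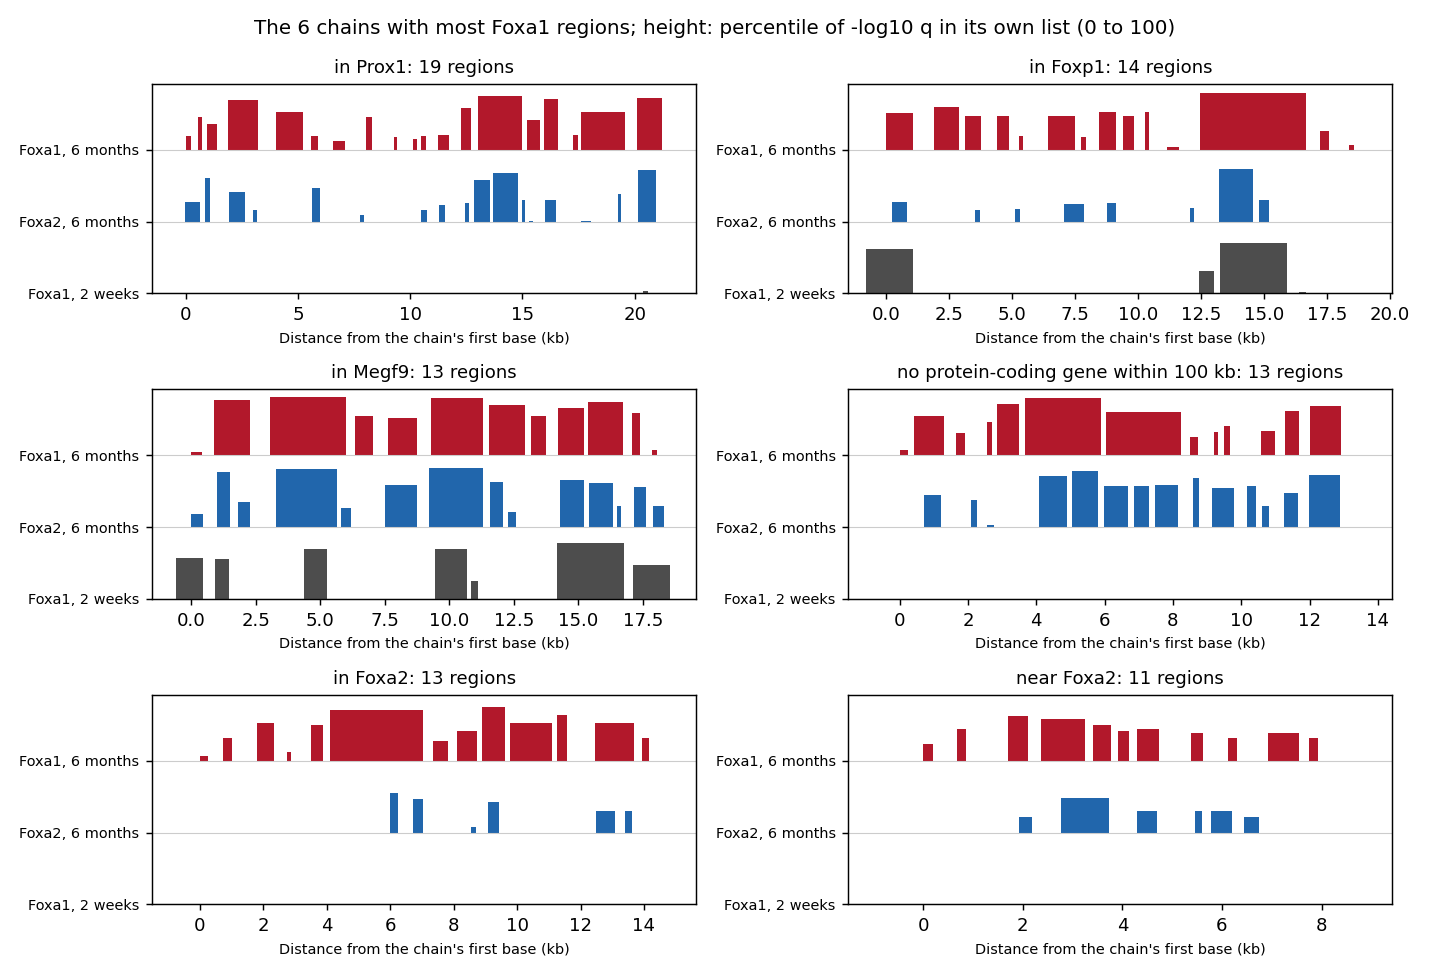
The 6 chains with most 6-month Foxa1 regions; the horizontal axis is the distance in kb from the first base of the chain, each block is a listed region at its true width, and its height is the percentile of its -log10 q within its own list (0 to 100). Foxa1 at 2 weeks is absent from the unassigned chain and from both Foxa2 chains, and is a single low block in Prox1, while Megf9 has 8 regions of 2 weeks.

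By length, the chains in Slc22a23 (chromosome 13, 34241730 to 34257346, 15617 bp), Pax9, a paired-box factor (chromosome 12, 56691063 to 56706521, 15459 bp), Eif4g3 (chromosome 4, 138077394 to 138092845, 15452 bp) and Abhd2 (chromosome 7, 79297814 to 79312970, 15157 bp) joined the list with 8, 8, 8 and 9 regions. A chain of 9 lay 69.1 kb from Tbx4 (chromosome 11, 85981089 to 85994495, 13407 bp). Each held 7 to 12 Foxa2 regions and 2 to 8 2-week regions. The Pax9 chain was the least covered at 2 weeks, with 3.09% of its span, and the Abhd2 chain the most, with 61.3%.

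The 10 chains with the strongest single region had 3 to 7 regions. That in Stat4, a signal transducer of cytokine receptors (chromosome 1, 51992306 to 51998986), had 3 regions with a highest fold of 20.2 and a -log10 q of 108 beside a weakest of 2.85. Chains of 7 regions at 7.98 kb from BC035044 (chromosome 6, 128835692 to 128843811, fold 18.6), of 5 at 15.4 kb from Galnt18 (chromosome 7, 111452665 to 111460898, fold 18.2), of 4 at 35.9 kb from Chd6 (chromosome 2, 161141660 to 161149492, fold 17.0), of 5 in Dlg2 (chromosome 7, 92416707 to 92424198, fold 18.4) and of 3 in Col8a1, a collagen gene (chromosome 16, 57682719 to 57689633, fold 17.1) were among them. The other 4 were farther than 100 kb from such genes and lay on the chromosomes 2, 9, 16 and 17, with 3 or 4 regions and folds of 16.5 to 18.4. All 10 held at least 2 Foxa2 regions and at least 1 2-week region.

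Among the 42 chains without Foxa2 the 5 largest, ties taken by strength, had no fold above 4.66. They lay in Mycl, a Myc family gene (chromosome 4, 122996950 to 122999977, 5 regions, highest fold 2.66), in Cdkal1 (chromosome 13, 29768102 to 29770804, 5 regions, 3.28), 39.7 kb from Ptn, a growth factor gene (chromosome 6, 36675103 to 36677537, 4 regions, 3.88), in the homeobox gene Six4 (chromosome 12, 73108449 to 73111867, 4 regions, 3.35) and 0.548 kb from Igf1 (chromosome 10, 87856586 to 87858770, 3 regions, 4.66). Of these 5, the Cdkal1 chain had 1 2-week region and the others had none, and 23 of all 3044 chains had no region of either other list. At the other end, most 2-week regions lay in the chains of Abhd2 and Megf9 (8 each), of Nfib, a nuclear factor of epithelia (chromosome 4, 82494495 to 82504412, 8), of Ppfibp2 (chromosome 7, 107685280 to 107696403, 7) and of Pex7 (chromosome 10, 19867867 to 19879520, 6). The Nfib chain had 9 regions of 6 months, 8 of 2 weeks and 4 of Foxa2.

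The 5 largest chains at 2 weeks had 8 or 9 regions. Those 97.4 kb from Gdf10 (chromosome 14, 33820922 to 33828485) and in Dnajc10 (chromosome 2, 80325325 to 80335200) had no 6-month Foxa1 regions, that 11.1 kb from Frmd8 had 2, and those in 0610040J01Rik and Serinc5 had 6 each. The 5 largest Foxa2 chains, of 9 or 11 regions, all held 6-month Foxa1 regions: 8 in the gene-free chain of chromosome 10, 5 at 80.0 kb from Fem1c, 4 in Synrg, 3 in St18 and 6 in Sdk1.

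Chains lay in genes slightly more often than other Foxa1 regions and at listed start sites less often. The summit lay in a protein-coding gene body for 59.5% (58.6 to 60.4%) of members and 56.0% (55.4 to 56.6%) of other regions. It lay within 1 kb of a start site for 2.28% (2.01 to 2.58%) and 3.61% (3.37 to 3.86%), over the 18 chromosomes with start sites in the table used. No gene body or end was within 100 kb for 13.2 and 14.8%. The median distance to the nearest start site was 59.2 and 58.9 kb. A start site lay in the span of 87 of 2927 chains (2.97%). The promoter windows used held start sites of 16457 genes, against 20665 protein-coding genes counted here. Start sites missing from them were not counted, so shares at start sites can be too low and distances too long.

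Chains also lay near each other at some genes, a feature looked at after the values were seen. In 96 places at least 3 chains followed each other less than 50 kb apart, and they held 343 chains (11.3%). The largest had 10 chains with 50 regions over 278 kb at Chd7, which encodes a chromatin remodeller (chromosome 4, 8748558 to 9026399), with 39 Foxa2 and 6 2-week regions. At Foxp1, 8 chains with 45 regions lay over 97.6 kb, with 35 Foxa2 and 15 2-week regions. A run of 6 chains with 29 regions ended with the chain of 10 assigned to Foxa2 (chromosome 2, 147831220 to 147952837), with 23 and 2.

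To count genes, each chain was given to every protein-coding gene whose body held the summit of its strongest region, or, failing that, to the gene whose end was nearest, up to 100 kb away. This places chains and does not show which gene they act on. A 6-month Foxa1 chain was held by 1900 of 20665 genes (9.19%), a 2-week Foxa1 chain by 1360 (6.58%) and a Foxa2 chain by 1489 (7.21%). Genes with a 6-month chain were long, with a median length of 78.4 kb against 17.5 kb for all genes, and the 154 genes with 3 or more chains had a median of 233 kb. Of the 1900 genes, 1037 (54.6%) also held a Foxa2 chain and 529 (27.8%) a 2-week chain.

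Of the 10 genes with most 6-month Foxa1 chains, 5 held at least 1 chain at 2 weeks and 5 held none. A 2-week chain was held by 6.58% of all genes, 27.8% of the 1900 genes with a 6-month chain and 49.4% of the 154 with 3 or more. Foxp1 held 13 chains with 64 regions at 6 months, 10 chains at 2 weeks and 8 of Foxa2, and Rere, a nuclear receptor corepressor gene, held 6, 5 and 6. The mitochondrial carrier gene Slc25a21 held 9 at 6 months, 0 at 2 weeks and 4 of Foxa2. Chd7 held 8, 0 and 11, the HMG-box gene Tox 8, 1 and 6, and 1700113H08Rik 6, 0 and 4. Frmd4b held 6, 1 and 2, Fstl4 6, 0 and 2, the phosphodiesterase gene Pde4d 6, 2 and 3, and Tcf12, a partner of basic helix-loop-helix factors, 6, 0 and 4. Of these 10 genes Chd7 alone had more Foxa2 than 6-month Foxa1 chains, but the 10 were chosen for their 6-month Foxa1 chains, which favours that count. Foxa1 itself held 1 chain of 6 regions at 6 months (chromosome 12, 57536516 to 57544847, highest fold 4.73), with 6 Foxa2 and 3 2-week regions in its span, and 2 chains at 2 weeks.

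Gene lists were read against these shares of all genes. In the neuroendocrine and neuronal list 10 of 23 genes held a 6-month Foxa1 chain (43.5%), 0 held a 2-week chain and 8 (34.8%) held a Foxa2 chain. The median length of these genes was 9.62 kb. Prox1 held 4 chains, and Snap25, which encodes a protein of synaptic vesicle fusion, held 3. The largest of these, with 10 regions over an end of the gene (chromosome 2, 136709991 to 136719062), held 9 Foxa2 regions and none of 2 weeks. The neural factor gene Sox1 held 3 chains (6, 4 and 3 regions), with no Foxa2 chain. Sox2 (chromosome 3, 34660989 to 34667484) held 1 chain of 6 regions with 4 Foxa2 regions and 1 of 2 weeks. Foxa2, Onecut2, the granule protein gene Chga, Sox11 and Nkx2-1 also held chains, and Insm1, Neurod1, Chgb and Ncam1 held none. Every chain of 6 of these genes had its strongest summit outside the gene. The distances were 2.56 to 11.1 kb for Sox1, 13.3 kb for Sox2, 15.0 kb for Sox11 and 4.2 kb for Chga. They were 1.05 and 14.7 kb for Onecut2 and 90.6 kb for Nkx2-1. The count of genes thus leans on the rule of the nearest gene end within 100 kb. The 2-week count was also 0 with gaps below 500 or 2000 bp and with chains of 4 or more. It was 0 too without the weaker regions (-log10 q below 5) and with lists of equal length. In these settings 797, 1922, 442, 260 and 355 of all 20665 genes held a 2-week chain, against 1360 in the main setting. For a list of 23 genes a count of 0 lies near these shares. The 6-month count was 5 to 11 in these settings, and the lowest was without the weaker regions, where 331 of all 20665 genes held a chain. This list was drawn up with earlier results of these data known.

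In the list of epithelial and pioneer factors 10 of 16 genes (62.5%) held a chain at 6 months, 9 (56.3%) at 2 weeks and 6 (37.5%) a Foxa2 chain. Nfib held 4, 4 and 2 and the luminal factor gene Klf5 held 2, 2 and 2. The epithelial factor gene Grhl2 held 2, 6 and 1, Ehf held 1, 4 and 0, and Nfia held 0, 5 and 0. Tfap2a held 3, 1 and 0. With lists of equal length the counts were 10, 4 and 6 genes.

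In the luminal and androgen response list 5 of 16 genes (31.3%) held a 6-month chain, 5 a 2-week chain and 3 a Foxa2 chain. With lists of equal length the counts were 5, 1 and 3, against 1834, 355 and 1489 of all genes. The transporter gene Abcc4 held 4, 1 and 2, the surface antigen gene Cd24a 2, 0 and 0, and Dpp4 2 in each list. Both Cd24a chains lay outside the gene, at 57.4 and 78.3 kb. Tmprss2, an androgen-induced protease gene, held 1 chain of 3 regions at 6 months (chromosome 16, 97649125 to 97651108), 2 chains with 8 regions at 2 weeks and no Foxa2 chain. Without the weaker regions (-log10 q below 5) the count was 0 of 16, against 331 of 20665 for all genes. Krt8, Krt18, Fkbp5, Hoxb13 and Msmb had no chain in any of the 3 lists. Among basal genes 2 of 12 held a chain in each list, Itga6 and Dst at 6 months, and the keratins Krt5 and Krt14 and the basal factor gene Trp63 held none.

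**Figure D5:**
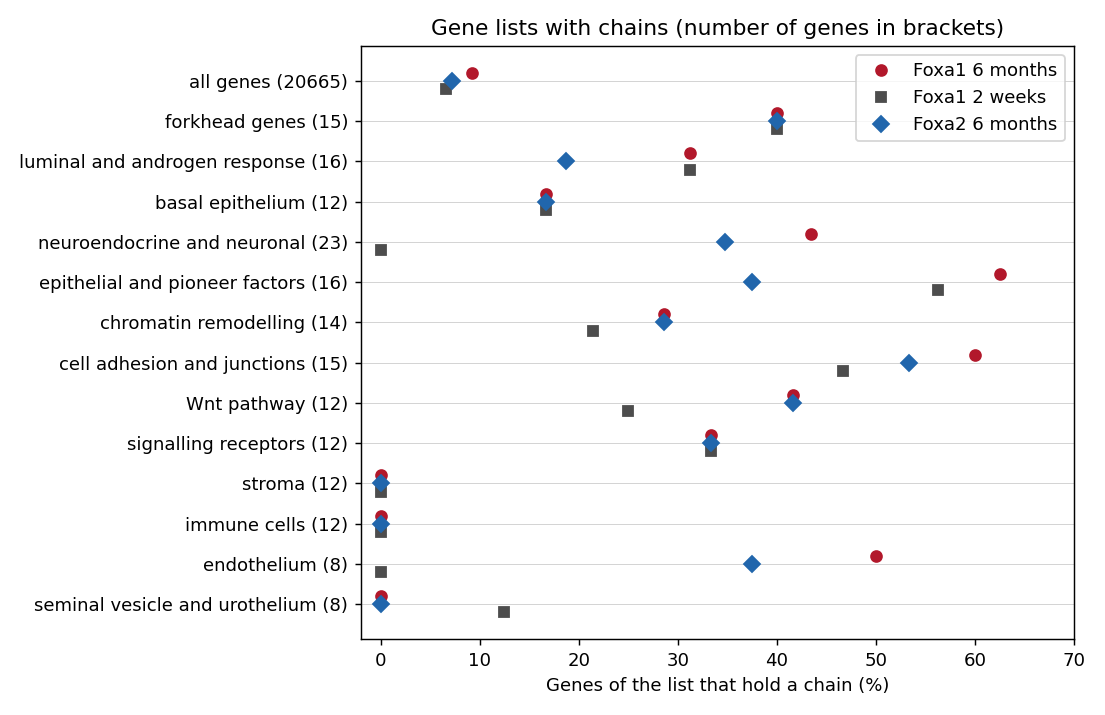
Share of the genes of each list (horizontal axis, %) that hold a chain of Foxa1 at 6 months, Foxa1 at 2 weeks or Foxa2 at 6 months; numbers of genes are in brackets and the top row gives all protein-coding genes. The neuroendocrine and neuronal list stands at 43.5, 0 and 34.8% against 9.19, 6.58 and 7.21% for all genes. The endothelial list of 8 genes has the same pattern, with 50, 0 and 37.5%.

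Among 15 forkhead genes 6 held a 6-month chain and 6 a 2-week chain: Foxp1, Foxa2, Foxa1, Foxc1, Foxk1 and Foxn3 at 6 months, whereas Foxp2 and Foxq1 held a Foxa1 chain at 2 weeks and none at 6 months. Of 14 chromatin remodelling genes 4 held a 6-month chain (Chd7, Arid1b, Chd2 and Chd6) and 3 a 2-week chain. In the Wnt list 5 of 12 held a chain at 6 months and 3 at 2 weeks. Tcf7l1, a repressor of Wnt targets, held 3 at 6 months, 0 at 2 weeks and 3 of Foxa2, and its strongest (chromosome 6, 72637268 to 72644642, 5 regions, fold 15.4) had no 2-week region. Of 12 signalling receptor genes 4 held a chain, Igf1r with 4, Erbb4 and Fgfr2 with 2 and Ret with 1, and of these Igf1r also held a chain at 2 weeks. The 2-week count was 4 of 12 too, with Erbb2, Kit and Tgfbr2 besides Igf1r, and the Foxa2 count was 4. Of 15 adhesion genes 9 held a chain at 6 months, 7 at 2 weeks and 8 a Foxa2 chain, in a list with a median gene length of 424 kb. Tenm2 held 5 at 6 months and 0 at 2 weeks, Sdk1 4 and 0, the epithelial cadherin gene Cdh1 2 and 3, and the polarity gene Pard3 2 and 4.

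In short lists of markers of other cell types, counts of 0 or 1 lie near the share of all genes, 9.19%. Stroma and immune lists had 0 of 12 genes each with a chain in any of the 3 peak lists, Acta2, Col1a1, Dcn, Ptprc and Cd3e among them; with gaps below 2000 bp the stroma count was 1. The seminal vesicle and urothelium list had 0 of 8 at 6 months and 1 of 8 at 2 weeks. The endothelial list had 4 of 8 genes at 6 months (50%), 0 at 2 weeks and 3 for Foxa2 (37.5%). This pattern was like that of the neuroendocrine and neuronal list. Erg held 2 chains of 3 regions, and Cdh5, Kdr and Vwf held 1 each of 3, 4 and 3 regions, while Pecam1, Tek, Emcn and Eng held none. The Kdr chain lay 96.6 kb from the gene. With the weaker regions left out the endothelial count was 1 of 8, against 331 of 20665 for all genes.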

How the data were processed

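Regions came from 4 peak lists, 1 per immunoprecipitated library; the 2 input libraries were not analysed here. The submitters' processing notes name the build mm10 and, with no role or order, MACS2 2.1.1, Bowtie2, HOMER, Trim Galore 0.5.0, bedtools 2.25.0, DiffBind 2.12.0 and deepTools 3.2.1. The sources used here do not state parameters or whether input served as control. The deposited lists give, per peak, the authors' fold enrichment (a ratio), their p-value and q-value as -log10, and a score that is 10 times that -log10 q cut to a whole number. All listed q-values were at or below 0.05. No depth is given.

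Chains were built on the chromosomes 1 to 19 with Python 3.11.15 (pandas 2.3.3, numpy 2.4.6, scipy 1.17.1; figures in matplotlib 3.10.9). Chain and overlap counts equalled those of bedtools 2.31.1 and were tested on simulated data. Genes (20665 protein-coding) and promoters came from RefSeq tables of GRCm38.p6. Promoters of chromosome 18 were not used here, and UTRs, exons and introns were not distinguished. All 179 symbols of the 13 gene lists were found, 175 on these chromosomes. Named chains were the 10 with most regions, the 10 longest, the 10 with the strongest region, 5 each with most regions among those without Foxa2 or without 2-week regions, the 5 with most 2-week regions, and the 5 largest of each other list; named genes were the 10 with most chains, list members and Foxa1 and Foxa2. Members and lists were chosen with earlier results of these data known. The alternatives were 8 settings of gap, chain size, strength, list length, chromosomes and overlap. Some genes of the lists count in the totals and are not reported here by name.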

Additional observations from a re-analysis of the deposited data

How the results depend on the processing

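Settings moved the size of the chained share but in no setting the order of the 3 lists. With gaps below 500 bp there were 2028 chains at 6 months, and the shares of regions in chains were 19.7% for Foxa1 at 6 months, 6.10% at 2 weeks and 12.6% for Foxa2. With gaps below 2000 bp the shares were 38.9, 19.1 and 29.5%. With chains of 4 or more regions there were 1211 chains and shares of 16.2, 4.30 and 9.85%. Without the weaker regions (-log10 q below 5) there were 403 chains and shares of 8.73, 2.96 and 5.24%, the lowest of the settings for each list, with fewer regions entering. With lists of equal length the shares were 30.7% for 6 months and 3.76% for 2 weeks. Adding X and Y changed every value by less than its counting error.

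The share of members that overlapped Foxa2 was 62.8% with gaps below 500 bp, 58.9% with gaps below 2000 bp and 58.2% with chains of 4 or more. It was 34.7% with a reciprocal overlap of 50% and 43.4% with summits within 200 bp. With regions of -log10 q below 5 left out of every list it was 55.9%, over 1331 members and a Foxa2 list shortened to 15013 regions. Against the full Foxa2 list, members of the main setting in the 4 strongest of 10 parts overlapped at 100, 97.2, 82.2 and 64.0%. The share that overlapped a 2-week region was 33.6% with gaps below 500 bp and 30.7% with chains of 4 or more. It was 12.6% with a reciprocal overlap of 50% and 19.7% with summits within 200 bp. With the cut at a -log10 q of 5 in every list it was 34.9%, and with lists of equal length 27.0%, so both used a shortened 2-week list. Members minus other regions stayed below 0 in all 8 settings, chosen for this difference after the data were seen: from -14.0 to -0.76 percentage points for Foxa2 and from -6.03 to -1.96 for 2 weeks. The -14.0 came from the setting that also shortened the Foxa2 list by -log10 q. No paired analysis was possible because each group has 1 library and no result comes from a test between groups. The depth is unknown, so a place without a listed region is only one where the caller listed none.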
